A study of Mus musculus with 18 samples.

Results

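The NF-kB subunits are the 5 Rel homology proteins c-Rel (Rel), p65 (Rela), RelB (Relb), p105/p50 (Nfkb1) and p100/p52 (Nfkb2). Members were chosen by gene symbol in the platform annotation, keeping the brightest row of each symbol. Of 19454 genes with a symbol, 4 were members, namely Rel, Rela, Relb and Nfkb2, each with 1 row; Nfkb1 was not analysed here. The study used macrophages grown with M-CSF from bone marrow of C57Bl/6 mice, whose RNA was hybridised to 18 arrays of the type Affymetrix Mouse Gene ST 1.0. The genotypes were TTP-/- (KO), which lack tristetraprolin, the mRNA-destabilizing protein encoded by Zfp36, and WT. All cells, WT included, first received lipopolysaccharide (LPS) for 3 h. Fresh medium with actinomycin D, which blocks transcription, and SB203580, which inhibits the kinase p38, was then applied for 0, 45 or 90 min, giving 6 groups of 3 arrays. No group had actinomycin D without SB203580, and no group was without LPS, so neither the inhibitor's share of a change nor induction by LPS can be told apart here.

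NF-kB dimers are held in the cytoplasm by IkB proteins and are released into the nucleus when receptors such as the LPS receptor activate the IkB kinase. In macrophages they drive the transcription of cytokine, chemokine and survival genes, and of their own inhibitors. p65, c-Rel and RelB carry a transactivation domain, whereas p50 and p52 are cut from longer precursors whose IkB-like ends hold them inactive. In the experiment measured here new transcription was blocked, so a fall of a subunit's signal over time is a loss of existing mRNA relative to the other mRNAs on the array.

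Several members are themselves described as NF-kB target genes, which is why the kB-like sequences near their start sites are shown. The windows ran from 250 bases before to 50 bases after each RefSeq start (assembly GRCm38.p6). They were searched on both strands for the 10-base kB consensus GGGRNNYYCC, where R is A or G, Y is C or T and N is any base. Windows were given for Rel (1), Rela (1) and Nfkb2 (3). In each line the match is in capitals, with 10 flanking bases on each side, read 5′ to 3′ on the gene's strand.
Rel, chr11:23771042-23771071, minus strand, first capital 92 bases before the start: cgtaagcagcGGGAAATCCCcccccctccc
Nfkb2, chr19:46304688-46304717, plus strand, 39 bases before a start: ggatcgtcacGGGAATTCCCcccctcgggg
Nfkb2, chr19:46304716-46304745, plus strand, 11 bases before the same start: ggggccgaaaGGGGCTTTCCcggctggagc
Nfkb2, chr19:46305695-46305724, plus strand, 10 bases past another start: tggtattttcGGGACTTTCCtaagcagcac
Rel had 2 matching positions, which overlap, and Nfkb2 had 5, of which 2 overlap. The Rela window had 0. The overlapping second positions and an Nfkb2 match 236 bases before a start are not printed. Of all 32851 mouse windows of the same length, 8.46% held the consensus. A match describes these letters only, and no binding was measured. With transcription blocked, the arrays do not report the activity of these promoters.

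In GRCm38.p6, Rel lies on chr11:23736847-23770969, Rela on chr19:5637442-5648134, Nfkb2 on chr19:46300994-46312400 and Relb on chr7:19606217-19629438. Relb is on the same chromosome as Zfp36 (chr7:28376784-28379228), at a distance of 8.75 Mb. The row of Zfp36 checked the genotype labels first. Its intensity was 76.2, 108 and 112 in KO cells at 0 min, against 247, 232 and 139 in WT cells at 0 min. The groups did not overlap, as for 7.14% of all genes in this direction, but the difference was not called (log2 −1.04 ± 0.32 SE, limma adjusted p = 0.564). By the run of title numbers described next, it was −1.40 in series B (limma adjusted p = 0.0149, called) and −0.31 in series A; which part of the gene the row measures, relative to the deletion, was not analysed here.

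Correlations between arrays of one group ran between 0.940 and 0.993 over the 10258 genes tested. The lowest was that of WT 90 min replicates 2 and 3 (0.940), and WT 0 min replicate 3 correlated with replicates 1 and 2 of its group at 0.941 and 0.948. Title numbers put replicate 3 of every group in 1 run (6 arrays, series A) and replicates 1 and 2 in another (12 arrays, series B), and values are given within them where they differ. All 8 measured macrophage markers of 9 were at or above the signal limit, a log2 intensity of 3.03. The limit was reached by 0 of 4 B cell, 0 of 5 T cell and 0 of 2 erythroid markers, 1 of 6 neutrophil, 2 of 5 dendritic cell and 4 of 6 fibroblast markers. Summed fibroblast marker intensity was 61.2 to 74.6 in KO and 62.0 to 82.8 in WT at 90 min, against 52.9 to 61.2 in KO and 57.7 to 65.5 in WT at 0 min. Fewer cells of a type and less RNA per cell cannot be told apart in such bulk samples. The part of this shift in the changes below was not tested.

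Rel alone of the members had every array at 90 min below every array at 0 min. Its intensity (RMA values on a linear scale, relative to the other mRNAs of the array) over the 6 arrays of each time had a lowest, median and highest value of 311, 367 and 546 at 0 min, 181, 297 and 372 at 45 min, and 123, 213 and 301 at 90 min. All 6 arrays at 90 min lay below all 6 at 0 min, which held for 1.1% of the 10258 genes tested (0.107% lay wholly above). The 45 min arrays overlapped with both times; 0.634% of all genes were wholly lower and 0.224% wholly higher at 45 min than at 0 min.

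The mean log2 change of Rel over both genotypes, 90 min minus 0 min, was −0.95 ± 0.21 (SE; 95% interval −1.39 to −0.50; n = 6 arrays at each time). This left 51.9% of the starting signal (limma adjusted p = 0.0216). Rel was the only member of the 4 called lower, a direction in which 2.28% of all genes tested were called; no member was called higher, against 0.0585% of all genes. Among 10258 genes Rel ranked 108th from the most negative change. Over the members the median change was −0.19, and over all genes tested it was 0.02.

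The change of Rel differed in size between replicate numbers. It was −0.71 for replicate 1, −0.44 for replicate 2 and −1.69 for replicate 3, so all 3 were negative. Within series B alone it was −0.57 (limma adjusted p = 0.0351), where 3.24% of all genes were called lower and 2.11% higher. The call was lost when any 1 of 4 arrays was left out, with the limma adjusted p at 0.0653 without KO 0 min replicate 2, 0.0517 without KO 90 min replicate 1, 0.0600 without KO 90 min replicate 3 and 0.0529 without WT 90 min replicate 3. It was also lost with only the compared groups in the fit (limma adjusted p = 0.0655).

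**Figure D1:**
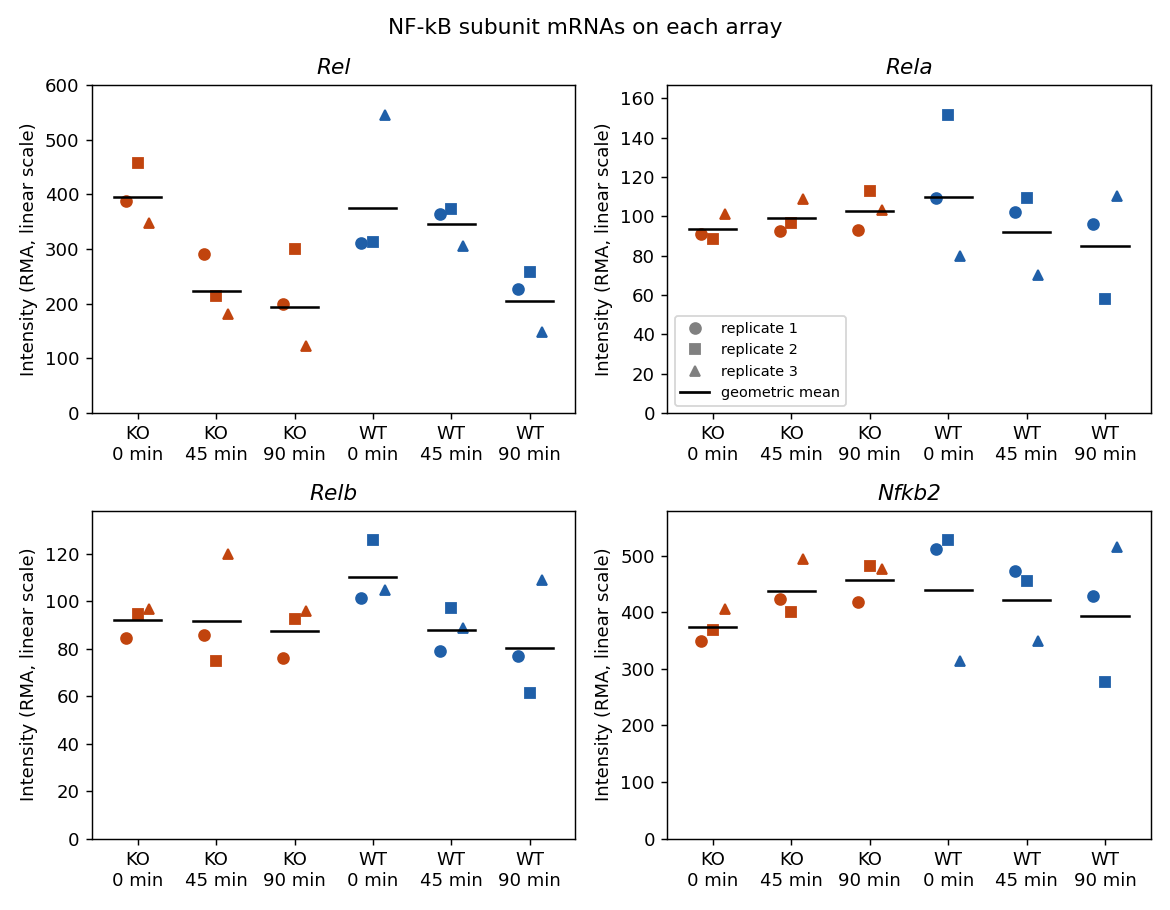
RMA intensity (linear scale) of Rel, Rela, Relb and Nfkb2 on each array, by genotype and time (KO in red, WT in blue); marker shapes are replicates and bars are geometric means. All Rel arrays at 90 min lie at or below 301 and all at 0 min at or above 311, whereas the other members overlap between those times.

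In KO cells the intensity of Rel was 388, 457 and 347 at 0 min, 290.0, 214 and 181 at 45 min, and 199, 301 and 123 at 90 min (replicates 1, 2 and 3). Every KO array at 45 and 90 min was below every KO array at 0 min. In WT cells it was 311, 313 and 546 at 0 min, 364, 372 and 305 at 45 min, and 227, 259 and 148 at 90 min. The WT arrays at 90 min were all below those at 0 min, while those at 45 min overlapped with 0 min. Groups of 3 arrays did not overlap, in this direction, for 7.89% of all genes in KO at 45 min, 6.22% in KO at 90 min and 7.24% in WT at 90 min; the shares wholly higher were 5.27% in KO and 3.28% in WT at 45 min, and 2.89% in WT at 90 min.

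By genotype, none of these changes of Rel was called. At 45 min the log2 change of Rel was −0.82 ± 0.30 in KO (95% interval −1.45 to −0.19; limma adjusted p = 0.750) and −0.12 ± 0.30 in WT (−0.75 to 0.51; limma adjusted p = 0.997). In WT at 45 min the replicates went different ways, with replicate 3 at −0.84 and replicates 1 and 2 at 0.22 and 0.25. At 90 min the log2 change of Rel was −1.02 ± 0.30 in KO (−1.65 to −0.39; limma adjusted p = 0.340) and −0.87 ± 0.30 in WT (−1.50 to −0.24; limma adjusted p = 0.250). All 3 replicates were lower in each genotype at 90 min, at −0.96, −0.60 and −1.50 in KO and −0.46, −0.27 and −1.88 in WT. WT replicate 3, whose 0 min array was the highest of all for Rel, had the largest of these changes.

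No member was called lower or higher within a genotype by limma. The shares of all genes called lower were 0.0487% in KO and 0.127% in WT at 45 min, and 0.224% in KO and 1.22% in WT at 90 min; the shares called higher were 0% in KO and in WT at 45 min, and 0% in KO and 0.00975% in WT at 90 min. At an unadjusted p below 0.05, Rel was lower in KO at 45 and at 90 min, and Rel and Relb were lower in WT at 90 min. At that level 396 of the 10258 genes were lower in KO at 45 min, 390 in KO at 90 min and 744 in WT at 90 min. Over both genotypes at 45 min 0 of 4 members were called, against 0.497% of all genes lower and 0.00975% higher; Rel had a log2 change of −0.47 ± 0.21 there (−0.92 to −0.02; limma adjusted p = 0.734) and was the 1 member at an unadjusted p below 0.05, where 471 of 10258 genes were lower and 189 higher.

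**Figure D2:**
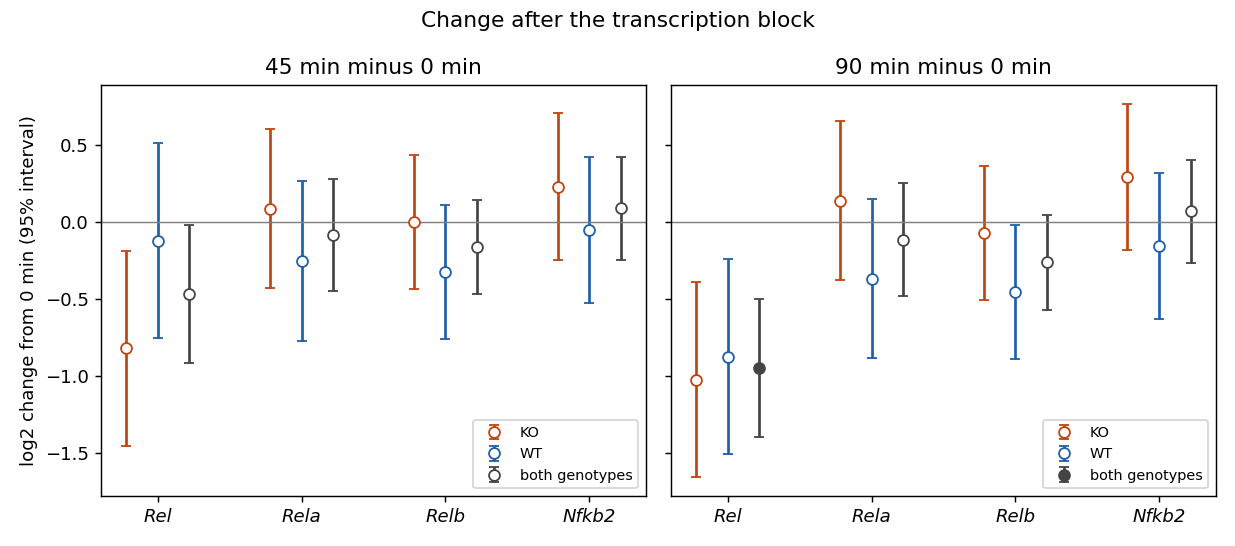
Log2 change from 0 min at 45 and 90 min for the 4 members, in KO, in WT and over both genotypes, with 95% intervals from limma; filled points have an adjusted p below 0.05. The one filled point is Rel over both genotypes at 90 min (−0.95), and the intervals of Rela, Relb and Nfkb2 include 0 except that of Relb in WT at 90 min (upper bound −0.02).

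Rela, which encodes p65, the main transactivating subunit of the canonical pathway, was not called at either time. In KO cells its intensity was 91.0, 88.4 and 101 at 0 min, 92.4, 96.6 and 109 at 45 min, and 92.9, 113 and 103 at 90 min. In WT cells it was 109, 152 and 80.0 at 0 min, 102, 109 and 70.1 at 45 min, and 96.2, 58.1 and 110.3 at 90 min. The KO arrays thus spanned 88.4 to 113 and the WT arrays 58.1 to 152, with overlap between all times in both genotypes. Over both genotypes the 90 min minus 0 min log2 change of Rela was −0.12 ± 0.17 (95% interval −0.48 to 0.25; limma adjusted p = 0.960).

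Relb encodes the partner of p52 in the noncanonical pathway, which receptors of the tumour necrosis factor family such as CD40 switch on. In KO cells the intensity of Relb was 84.4, 94.8 and 96.8 at 0 min, 85.9, 74.7 and 120.0 at 45 min, and 76.0, 92.3 and 95.7 at 90 min. In WT cells it was 101, 126 and 105 at 0 min, 79.1, 97.0 and 88.5 at 45 min, and 76.8, 61.5 and 109 at 90 min. The WT arrays at 45 min were all below those at 0 min, as for 6.67% of all genes, and those at 90 min overlapped with 0 min. The log2 change of Relb in WT at 90 min was −0.46 ± 0.21 (−0.89 to −0.02; limma adjusted p = 0.489), against −0.07 ± 0.21 in KO (−0.50 to 0.36; limma adjusted p = 1.00). Over both genotypes it was −0.26 ± 0.15 (−0.57 to 0.04; limma adjusted p = 0.656).

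Nfkb2 encodes p100, which acts as an inhibitor until it is cut to p52. In KO cells its intensity was 349, 368 and 405 at 0 min, 423, 401 and 494 at 45 min, and 418, 481 and 476 at 90 min. In WT cells it was 511, 527 and 313 at 0 min, 472, 455 and 349.7 at 45 min, and 429, 276 and 514 at 90 min. The KO arrays at 90 min were all above those at 0 min, as for 5.64% of all genes, and the WT arrays overlapped. The log2 change of Nfkb2 at 90 min was 0.29 ± 0.22 in KO (−0.18 to 0.77; limma adjusted p = 1.00) and −0.15 ± 0.22 in WT (−0.63 to 0.32; limma adjusted p = 0.950). Over both genotypes it was 0.07 ± 0.16 (−0.27 to 0.40; limma adjusted p = 0.973).

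The WT values of Rela, Relb and Nfkb2 moved with replicate number. For each of these 3 members the highest of all 18 arrays was WT 0 min replicate 2 and the lowest was WT 90 min replicate 2. Their log2 changes in WT at 90 min were −0.19, −1.38 and 0.46 for Rela, −0.40, −1.03 and 0.06 for Relb, and −0.25, −0.93 and 0.72 for Nfkb2 in replicates 1, 2 and 3. Within series B, which holds replicates 1 and 2, limma called Rela (−0.79, adjusted p = 0.0319) and Relb (−0.71, adjusted p = 0.0236) lower in WT at 90 min, when 5.98% of all genes were called lower and 7.46% higher in that fit; in series A both were above 0. Rel was lower in all 3 WT replicates at 90 min and differed in sign from these members in replicate 3, where its WT change was largest. The cause was not tested.

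Rel was also set against Rela, Relb and Nfkb2 on the same array, a comparison chosen after seeing the data. The pattern of Rel had a Pearson r of −0.20 with Rela, 0.17 with Relb and −0.43 with Nfkb2, measured as described below. A ratio therefore also carries the other member's own shifts and does not correct Rel for them. The log2 ratio of Rel to Nfkb2 was lower at 90 min than at 0 min by a mean difference of −1.02 (two-sided exact permutation test of 6 against 6 arrays, p = 0.0238). The differences were −0.83 for Rel over Rela (exact permutation p = 0.0584) and −0.68 for Rel over Relb (exact permutation p = 0.0693). After Benjamini-Hochberg adjustment over the 3 ratios each was 0.0693, above the threshold of 0.05; the smallest p this design allows is 0.00216. The permutation treated all arrays as exchangeable, without regard to genotype, replicate number or series. Its p therefore does not account for deviations that same-numbered arrays share. Each ratio was lower in 5 of 6 genotype and replicate sets. The exception in all 3 ratios was WT replicate 2, at 1.11 over Rela, 0.76 over Relb and 0.66 over Nfkb2. Within series B the difference was −0.44 for Rel over Nfkb2 (exact permutation p = 0.229), −0.28 for Rel over Rela (exact permutation p = 0.486) and −0.17 for Rel over Relb (exact permutation p = 0.571). For Rel over Nfkb2 without KO 90 min replicate 3 it was −0.84 (exact permutation p = 0.0519). Without WT 90 min replicate 2, Rel over Rela was at −1.04 (exact permutation p = 0.0216) and Rel over Relb at −0.85 (exact permutation p = 0.0325), both unadjusted. For each of these 2 ratios the exact permutation p was below 0.05 in only 2 of 12 single-array omissions. Other omissions brought Rel over Rela up to −0.66 and Rel over Relb up to −0.51. The highest exact permutation p over the omissions was 0.115 for Rel over Rela and 0.136 for Rel over Relb.

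**Figure D3:**
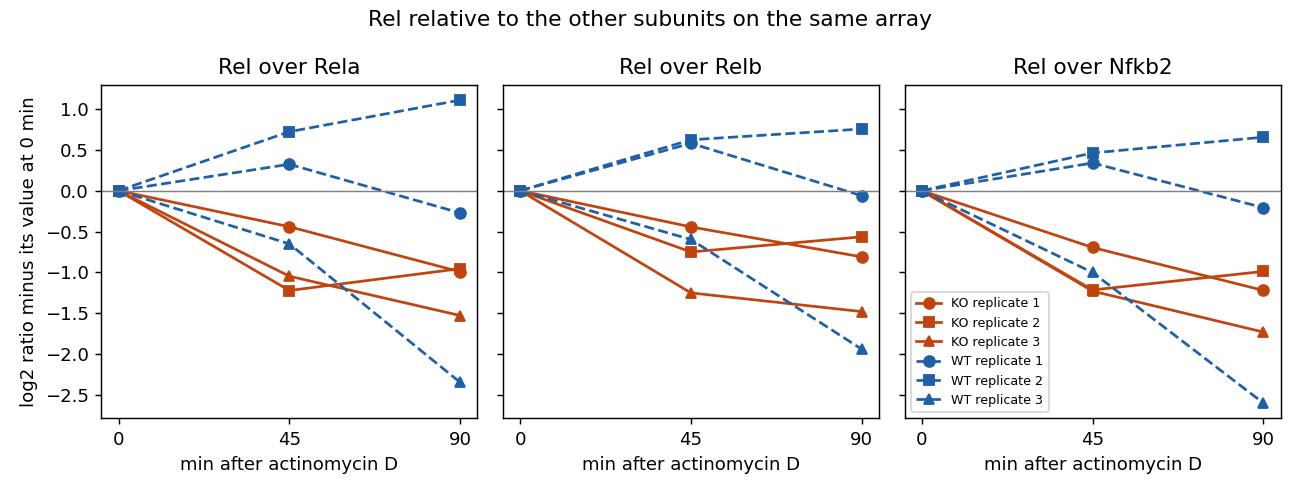
Log2 ratio of Rel to Rela, Relb and Nfkb2 on the same array, minus its value at 0 min, against minutes after actinomycin D, 1 line per genotype and replicate (KO solid, WT dashed). At 90 min 5 of 6 lines lie below 0 in each panel, and WT replicate 2 lies above it.

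The genotypes were compared to ask whether the loss of a mRNA needs TTP. No member was called for a KO minus WT difference at 0 min, when 0% of all genes were called in either direction by limma, although 390 were lower and 387 higher at an unadjusted p below 0.05; 0 members reached that level. After 3 h of LPS the log2 difference KO minus WT was 0.07 ± 0.30 for Rel (95% interval −0.56 to 0.70), −0.24 ± 0.24 for Rela (−0.75 to 0.28), −0.26 ± 0.21 for Relb (−0.69 to 0.17) and −0.23 ± 0.22 for Nfkb2 (−0.71 to 0.24). The sign differed between series for 3 members: it was 0.43 in series B and −0.65 in series A for Rel, −0.52 in series B and 0.34 in series A for Rela, and −0.53 in series B and 0.37 in series A for Nfkb2. For Relb it was −0.33 in series B and −0.11 in series A. Within series B the limma adjusted p was 0.219 for Rel, 0.165 for Rela, 0.303 for Relb and 0.0988 for Nfkb2. Relb was the 1 member whose 3 KO arrays lay below the 3 WT arrays, as did 7.14% of all genes; 3.15% of all genes lay wholly above.

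The decay difference subtracts the WT log2 change since 0 min from the KO log2 change, so a mRNA lost more slowly in KO has a positive value. At 90 min it was −0.15 ± 0.42 for Rel (95% interval −1.04 to 0.74), 0.51 ± 0.35 for Rela (−0.22 to 1.24), 0.39 ± 0.29 for Relb (−0.23 to 1.00) and 0.45 ± 0.32 for Nfkb2 (−0.22 to 1.12). No member was called (limma adjusted p = 0.999 for each), none reached an unadjusted p below 0.05, and 0% of all genes were called lower and 0.0195% higher. The positive values of Rela, Relb and Nfkb2 rested mainly on replicate 2, at 1.74, 0.99 and 1.31. Replicate 1 was at 0.22, 0.24 and 0.51, and replicate 3 at −0.43, −0.07 and −0.48. When single arrays were left out, the lowest estimates were 0.23, 0.20 and 0.19. For Rel the sign also split, with replicates 1, 2 and 3 at −0.50, −0.33 and 0.39. At 45 min the decay difference was −0.70 ± 0.42 for Rel (−1.59 to 0.20; limma adjusted p = 1.00), with replicates at −0.64, −1.35 and −0.10. It was 0.34 ± 0.35 for Rela (−0.39 to 1.07), 0.32 ± 0.29 for Relb (−0.29 to 0.93) and 0.28 ± 0.32 for Nfkb2 (−0.39 to 0.95). No member was called by limma at 45 min either or reached an unadjusted p below 0.05, with 0% of all genes called lower and 0.00975% higher. The intervals leave room for differences of about 1 log2 unit or more, positive for Rela, Relb and Nfkb2 at 90 min and negative for Rel at both times.

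**Figure D4:**
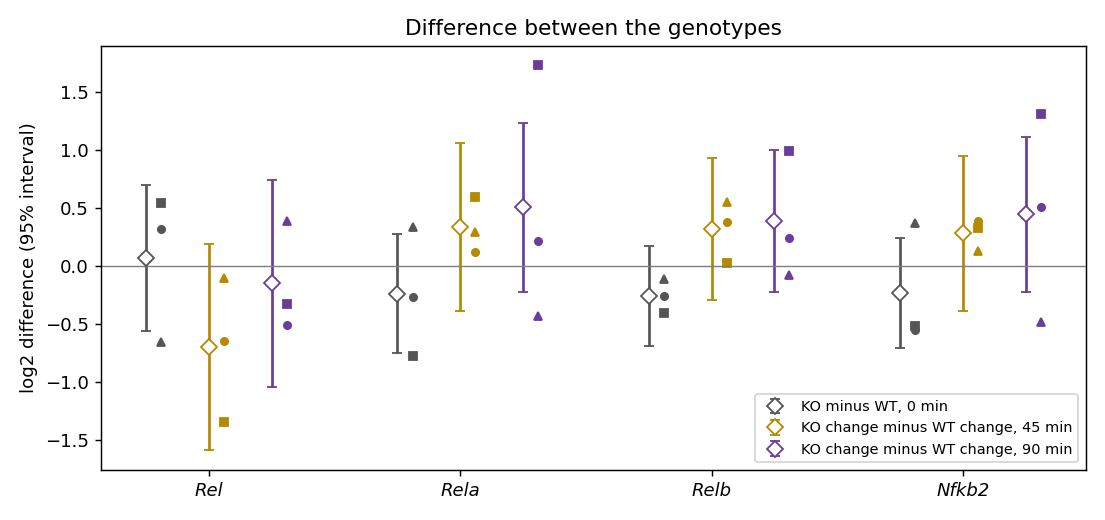
Log2 differences between the genotypes for the 4 members: KO minus WT at 0 min, and the KO change minus the WT change at 45 and 90 min. Diamonds and bars are limma estimates with 95% intervals, small symbols are replicates (circle 1, square 2, triangle 3); all intervals include 0.

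By likeness of pattern over the 18 arrays, after each replicate number's mean was subtracted, the 3 genes nearest to Rel were Spata5 (Pearson r = 0.958), Nufip1 (0.955) and Zfp84 (0.955). Nufip1 was itself called lower over both genotypes at 90 min (log2 −0.77, limma adjusted p = 0.0322). Nearest to Rela were Clip2 (0.955), Trappc9 (0.950) and Tbc1d10b (0.940), to Relb P2ry6 (0.921), Chaf1a (0.915) and Sh3tc1 (0.912), and to Nfkb2 Slc4a2 (0.956), Ddb1 (0.955) and Slc3a2 (0.954). Among the members themselves the same measure was 0.909 for Rela with Nfkb2, 0.814 for Rela with Relb and 0.677 for Relb with Nfkb2. For Rel it was −0.20 with Rela, 0.17 with Relb and −0.43 with Nfkb2. These values describe arrays that share genotype, time and series, and carry no test.

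Other genes of the pathway were read from lists ordered by role, over both genotypes at 90 min minus 0 min. Of the 7 measured IkB proteins, which hold NF-kB dimers or modify their activity in the nucleus, 3 were called lower and none higher, with a list median of −0.61, against 2.28% of all genes called lower and 0.0585% higher. On the log2 scale Nfkbia, which encodes IkBα, fell by 2.80 (SE 0.35). Nfkbid and Nfkbiz, which encode nuclear IkB proteins, fell by 1.11 (SE 0.15) and 0.94 (SE 0.16). Nfkbie, Nfkbib, Bcl3 and Nfkbil1 were not called. Over both genotypes Rel, at −0.95, lay between Nfkbid and Nfkbiz, while Bcl3 was at −0.61 (SE 0.23). By genotype, Nfkbid was at −0.61 ± 0.21 in KO and −1.62 ± 0.21 in WT. Nfkbiz was at −0.97 ± 0.23 in KO and −0.91 ± 0.23 in WT, and Rel at −1.02 ± 0.30 and −0.87 ± 0.30. The differences between the changes of these genes were not tested.

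Of 10 tested kinases and noncanonical regulators, 3 were called lower, against 2.28% of all genes, with a median of −0.21. Map3k8, the kinase Tpl2 that is bound by p105, fell by 2.04 (SE 0.21) on the log2 scale, Traf2 by 0.81 (SE 0.17) and Birc3, an inhibitor of apoptosis protein that curbs the noncanonical kinase, by 0.69 (SE 0.14). Of 14 ubiquitin-editing and other inhibitors, 2 were called lower, against the same 2.28%, with a median of −0.23. Tnfaip3, the deubiquitinase A20, fell by 2.85 (SE 0.28), and N4bp1 fell by 0.47 (SE 0.12, limma adjusted p = 0.0413).

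Against the 2.28% of all genes called lower, 2 of 21 receptors and adaptors were called lower, with a median of 0.01. They were Ticam1, the adaptor TRIF, which fell by 0.79 (SE 0.16), and the ubiquitin ligase gene Traf6, which fell by 0.64 (SE 0.15). Of 12 cofactors and partners 1 was called lower, the transcription factor gene Irf1, which fell by 2.21 (SE 0.40), with a list median of −0.23. Of 37 target genes tested 7 were called lower, again against 2.28%, with a median of −0.25. Among them were the cytokine gene Tnf, which fell by 2.34 (SE 0.13), the survival gene Ier3, which fell by 1.77 (SE 0.27), the cytokine gene Csf2, which fell by 1.59 (SE 0.23), and the chemokine gene Cxcl1, which fell by 1.50 (SE 0.25). These falls are means of KO and WT, and values by genotype are given below for Tnf, Csf2 and Cxcl1. No gene of these 6 lists was called higher, and the median over all genes tested was 0.02. The calls of Traf6 and N4bp1 held in 8 and 5 of 18 omissions of a single array, with limma adjusted p up to 0.113 and 0.123; both, and that of Birc3, were also lost within series B and with only the compared groups in the fit. That of N4bp1 was lost with centring on ribosomal protein genes too, which left 1 inhibitor called.

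For the decay difference at 90 min limma called no gene of 5 lists and no member. Of the target genes 2 had a positive decay difference past the threshold, Tnf (decay difference 3.79 ± 0.26) and the chemokine gene Cxcl2 (2.09 ± 0.33, limma adjusted p = 0.0375). Tnf changed by −0.45 ± 0.18 in KO cells, against −4.24 ± 0.18 in WT cells, and Cxcl2 by 0.11 ± 0.23 against −1.98 ± 0.23. Cxcl1 changed by −0.18 ± 0.35 in KO and −2.82 ± 0.35 in WT. Its decay difference of 2.64 ± 0.50 was not called (limma adjusted p = 0.190). Csf2 changed by −0.94 ± 0.32 in KO and −2.24 ± 0.32 in WT, with a decay difference of 1.30 ± 0.46 that was not called. Map3k8 was called lower in both genotypes, at −1.65 ± 0.29 in KO and −2.42 ± 0.29 in WT, with a decay difference of 0.77 ± 0.41 that was not called. Rel had a decay difference of −0.15 beside these, with its replicates on both sides of 0.

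**Figure D5:**
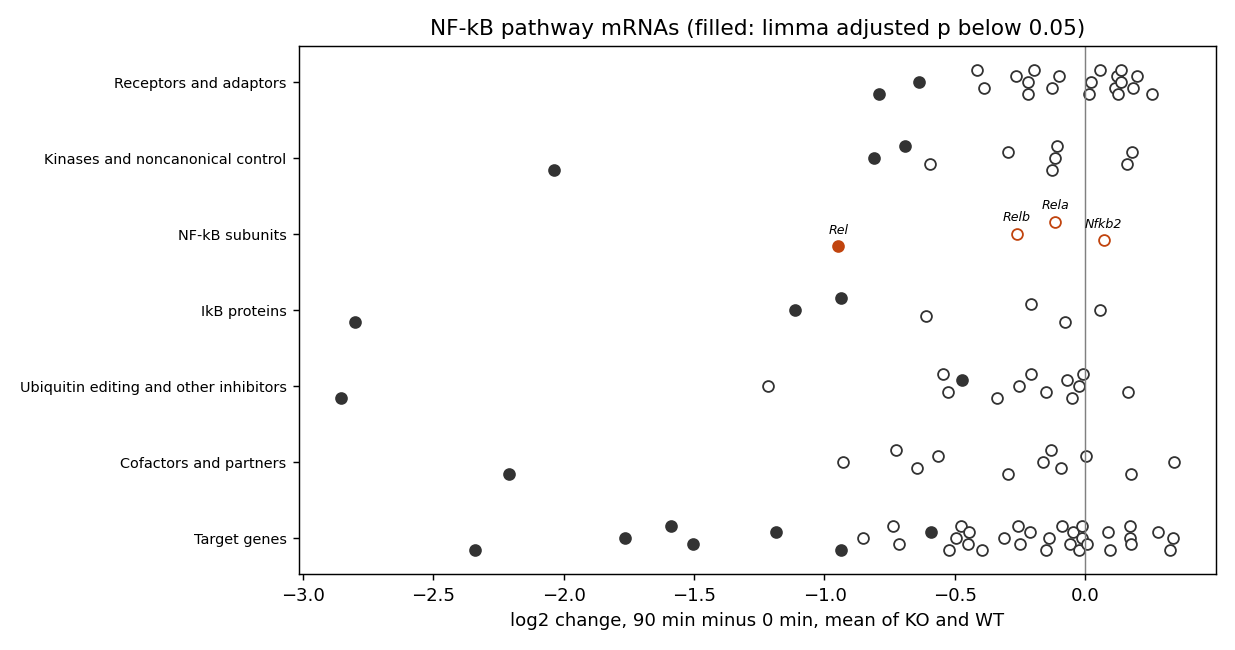
Log2 change at 90 min minus 0 min, mean of KO and WT, for each tested gene of the NF-kB pathway lists, 1 row per list; filled points have a limma adjusted p below 0.05. Rel (−0.95) is the filled member, and the IkB proteins, kinases and inhibitors reach −2.80, −2.04 and −2.85.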

How the data were processed

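The authors deposited 1 table of intensity values for 18 arrays, made with RMA in Affymetrix Expression Console per the submitters' processing notes; no version is stated in the labels. The intensity scale was taken as linear from its range (array medians 7.41 to 8.19, maxima 7379 to 14337). RMA normalizes arrays to each other, although the deposited medians are not identical; changes are therefore relative to the other mRNAs, and a general loss of RNA cannot be measured. The log2 of the deposited intensity was used without an offset. Among 25138 rows, 21039 had 1 symbol, 1485 several and 2614 none, of which only the first kind were named; 84 kept an older symbol after updating through RefSeq (GRCm38.p6). A gene was tested where its brightest group mean was at least the median over rows (log2 3.03), which left 10258 of 19454; all 4 members passed.

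A model of 6 group means was fitted to all arrays with limma 3.58.1 (R 4.3.3), with Benjamini-Hochberg adjustment over all tested genes at 0.05. Figures were drawn with matplotlib 3.10.9 in Python 3.11.15. The procedure was tested on simulated data. The named genes were the members, the 3 genes most like each, up to 4 called genes per pathway list with the largest change, and Zfp36; Cxcl2 and the uncalled IkB genes were named after their values were seen. Members and lists were chosen with earlier results of these data known.

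Nothing in the labels says that replicates are separate animals or cultures; p-values therefore rest on array-to-array spread that may be technical. Same-numbered arrays deviated together (every correlation above 0.1) for KO at 45 min (lowest 0.321) and 90 min (0.413), WT at 45 min (0.333) and KO against WT at 0 min (0.156), but not for WT at 90 min (−0.287) or comparisons that include it, nor over both genotypes at 45 min (0.018). Alternatives covered scaling, offset, filter, blocks, series and leaving out each array. The number of arrays, 3 per group, limits the precision of the estimates.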

Additional observations from a re-analysis of the deposited data

How the results depend on the processing

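Over 31 alternatives and 36 comparisons of members, 1080 of 1116 values kept their direction and side of the threshold. Only 1 of the 36 was called in the main fit, so most had little room to change side. That call, of Rel over both genotypes at 90 min, was lost in 5 of 31 alternatives. The number of members called over both genotypes at 90 min was 1, and 0 with only the groups compared (Rel, adjusted p = 0.0655). It was 0 to 1 when single arrays were left out; the change of Rel then ran between −1.10 and −0.78. In series B alone the number called in WT at 90 min was 2 (Rela and Relb) in place of 0. With the replicate number as a block, Rel over both genotypes at 90 min had an adjusted p of 0.00698; the replicate block changed no other call of a member. The replicate block raised the target genes called, lower or higher, to 15, against 7, and the cofactors to 5, against 1. Counting both directions likewise, a series block gave 14 target genes, 5 cofactors and 4 inhibitors (against 2). Series B alone gave 12 target genes, 5 cofactors and 1 of the receptors and adaptors (against 2). In that fit 3.24% of all genes were called lower and 2.11% higher. The shares of all genes called with the blocks are not given here, so these rises cannot be set against them. With only the groups compared, receptors and adaptors and the inhibitors had 1 each; the inhibitors also had 1 with ribosomal protein centring. Directions turned for Relb in KO at 45 min with quantile normalization (0.057) and housekeeping centring (0.0314). With ribosomal protein centring they turned for Nfkb2 in WT at 45 min (0.0022) and for KO minus WT at 0 min of Rela (0.0097) and Nfkb2 (0.0147); that centring put the median of all genes at 0.25 for KO minus WT at 0 min and at −0.13 and −0.094 for the decay differences at 45 and 90 min, against 0.15 at 90 min with array medians scaled. In series B alone they turned for Rel in WT at 45 min (0.24) and Nfkb2 over both genotypes at 90 min (−0.13). With single arrays left out, values spanned 0 for Nfkb2 over both genotypes (−0.035 to 0.15 at 45 min, −0.052 to 0.20 at 90 min) and in WT (−0.30 to 0.081 and −0.40 to 0.10), for Rel in the decay difference at 90 min (−0.46 to 0.18), at 0 min (−0.065 to 0.34) and in WT at 45 min (−0.26 to 0.15), for Rela over both genotypes (−0.20 to 0.032 and −0.23 to 0.022) and for Relb in KO (−0.20 to 0.14 and −0.13 to 0.033). The causes were not tested.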
